A study of Mus musculus with 4 samples.

Results

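The binding of phosphorylated STAT3 (pSTAT3) was examined at 10 genes of oligodendrocyte progenitor cells that encode mostly surface, secreted and matrix proteins: Xylt1, Vcan, Bcan, Ptprz1, Gpr17, Pcdh15, Lhfpl3, Rnf122, Scrg1 and C1ql1. They were taken by name, as 10 of 21887 protein-coding genes, with earlier results of these data known. Their regions were the rows that carry those names in the authors' table of reproducible regions. This gave 30 of 12925 regions. The label of the group does not describe every gene in it, since Rnf122 encodes a RING-finger ubiquitin ligase. The cells were primary cortical oligodendrocyte progenitors of C57BL/6 mice, kept dividing in bFGF at 20 ng/ml with PDGF-AA at 10 ng/ml, and all libraries came from cells given the cytokine CNTF at 100 ng/ml for 15 min. The 2 ChIP libraries were made with an antibody against STAT3 phosphorylated at tyrosine 705, and 2 input libraries, also from treated cells, were not analysed here. With a single treatment there is no untreated group, so the values describe where pSTAT3 lay after CNTF and not what CNTF changed. The files hold binding sites and no RNA, so neither the expression of these genes nor the identity of the cells was measured. Cells were pooled after lysis according to the protocol, and separate cultures are not mentioned in the labels, so differences between the replicates may be technical only.

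Oligodendrocyte progenitors divide and migrate through the brain before they differentiate into myelin-forming cells, and they surround themselves with a matrix rich in chondroitin sulfate proteoglycans. These are core proteins to which sugar chains are attached, and several of them restrain the outgrowth of axons and the maturation of progenitors. STAT3 is a transcription factor that is phosphorylated by JAK kinases when CNTF engages the gp130 receptor, whereupon it dimerises, enters the nucleus and binds DNA.

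The table named a reproducible region for 9 of the 10 genes, where 42.5% of protein-coding genes had one. Lhfpl3 was the exception by name, but 3 regions lay inside its RefSeq span and were listed under another gene, as described further on. With these, the 10 genes had 33 regions. By position, a region midpoint lay within 25 kb of the RefSeq span of 10 of 10 genes (42.1% of all protein-coding genes) and inside it for 8 (19.6%). Counts by span are not scaled by length, and a longer span has more room for a region. A region within 5 kb of any listed start was found for 6 (18.1%) and within 1 kb for 3 (12.8%). Counted from the most upstream listed start alone, 4 genes had one within 5 kb (15.2%): Rnf122, Scrg1, Gpr17 and Vcan. With either end of the RefSeq span in place of a start, 6 had a region midpoint within 5 kb (19.3%). In the single libraries, a peak summit lay within 5 kb of either end of 10 of the genes in replicate 1 (49.8%) and of 7 in replicate 2 (34.8%).

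Promoter sequences were at hand for 5 of the 10 genes (RefSeq, GRCm38.p6), and those of Lhfpl3 and Pcdh15 are shown because both libraries had a peak over them that did not enter the table of reproducible regions. Each is the run of 250 bases before a RefSeq start, 5′ to 3′ on the gene's strand, with the bases under a peak of either library in capitals. The Lhfpl3 window is chr5:22745804-22746053 and the Pcdh15 window chr10:73821617-73821866, both on the plus strand.
Lhfpl3: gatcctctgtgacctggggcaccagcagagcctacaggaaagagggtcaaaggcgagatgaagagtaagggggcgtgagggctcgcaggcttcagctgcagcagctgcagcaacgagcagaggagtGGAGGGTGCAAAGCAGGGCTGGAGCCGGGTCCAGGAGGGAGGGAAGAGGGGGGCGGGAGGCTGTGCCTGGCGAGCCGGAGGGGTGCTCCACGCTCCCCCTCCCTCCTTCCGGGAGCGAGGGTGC
Pcdh15: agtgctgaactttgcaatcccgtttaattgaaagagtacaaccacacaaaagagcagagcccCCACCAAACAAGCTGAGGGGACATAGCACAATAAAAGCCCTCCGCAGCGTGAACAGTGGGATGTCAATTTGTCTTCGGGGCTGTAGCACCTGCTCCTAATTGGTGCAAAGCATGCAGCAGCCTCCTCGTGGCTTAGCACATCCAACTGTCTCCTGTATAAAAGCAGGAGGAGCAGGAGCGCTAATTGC
Over the Lhfpl3 window, the replicate 1 peak had 4.17-fold enrichment with 27 stacked fragments, and the replicate 2 peak 2.93-fold with 12. Over the Pcdh15 window, which precedes an internal start of that gene, the values were 4.9-fold with 27 fragments and 3.52-fold with 14. Fold enrichment is the peak caller's ratio of stacked fragments at the summit to local background, as the authors deposited it for each peak. The -log10 q of these peaks was 8.0 and 1.6 for Lhfpl3 and 9.86 and 2.98 for Pcdh15.

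The windows of the other 3 genes had a peak in 1 library only, at 4.86-fold for Bcan and 2.83-fold for Ptprz1 in replicate 1 and at 3.18-fold for Vcan in replicate 2. Replicate 1 had a peak over 4 of the 5 windows, against 21.8% of the 32851 promoter windows of the reference, and replicate 2 over 3, against 12.4%. All 5 windows were thus under a peak of at least 1 library, against 22.5% of all windows, and 2 were under peaks of both, against 11.7%. None of these peaks was reproducible by the authors' table. The windows of Pcdh15, Bcan and Vcan, and part of that of Ptprz1, lie inside the gene's RefSeq span, so they precede one start of the gene and may be part of its longer transcripts. Of the 5, only the Lhfpl3 window lies wholly outside the span. The STAT consensus TTCNNNGAA, its stricter form TTCCNGGAA, which is contained in it, and the AP-1 site TGANTCA read the same on both strands. None of the 3 was found in the windows of 300 bases (250 before to 50 after the start) of these 5 genes. Over all 32851 windows they were present in 8.3%, 1.15% and 7.81%. The lack of a match says only that these letters are not in these windows. G and C made up 50.7% of the 300 bases at Pcdh15 and 71.7% at Ptprz1, with a median of 52.7% over all windows.

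**Figure D1:**
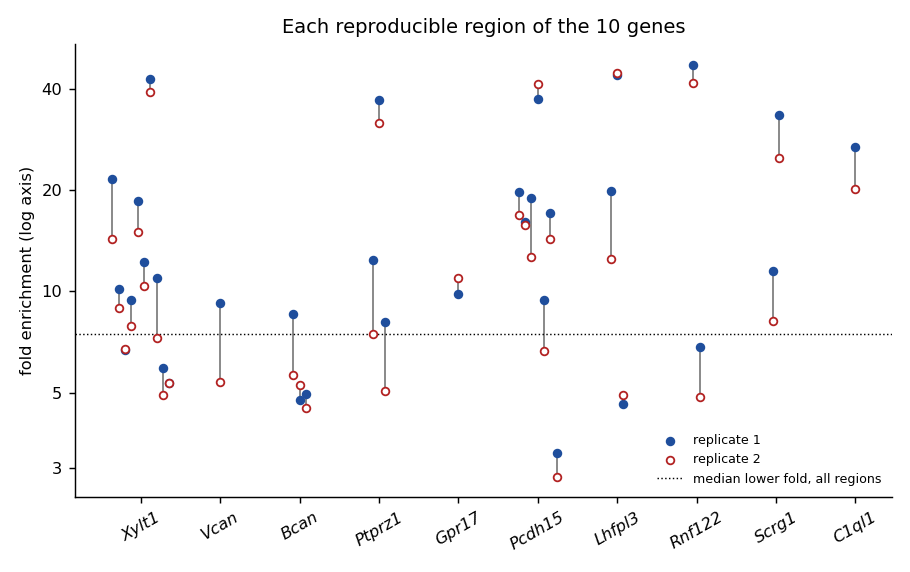
Fold enrichment (log axis) of each reproducible region of the 10 genes in replicate 1 (filled) and replicate 2 (open). Regions are ordered along each gene from upstream to downstream, and a vertical line joins both values of each region. The dotted line is the median of the lower fold over all 12925 regions, 7.48; Lhfpl3, Rnf122, Xylt1 and Pcdh15 each have 1 region near 40-fold, while every region of Vcan and Bcan has its lower value under the dotted line.

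The strongest region of each gene spanned a wide range. By the lower fold of both libraries, the order was Lhfpl3 (44.0), Rnf122 (41.5), Xylt1 (39.2), Pcdh15 (37.2), Ptprz1 (31.7), Scrg1 (24.9), C1ql1 (20.2), Gpr17 (9.82), Bcan (5.63) and Vcan (5.38). The ranges between libraries overlapped for Lhfpl3 with Rnf122, Rnf122 with Xylt1, Xylt1 with Pcdh15, Ptprz1 with Scrg1, Scrg1 with C1ql1 and Bcan with Vcan. The order differed between the libraries for Lhfpl3 with Rnf122, Xylt1 with Pcdh15 and Bcan with Vcan, and is not resolved there. Rnf122 was above Xylt1, Ptprz1 above Scrg1 and Scrg1 above C1ql1 in both libraries, and these orders were not tested. The ranges of Pcdh15 and Ptprz1 missed each other narrowly (37.2 to 41.4 and 31.7 to 37.1), and those of C1ql1, Gpr17 and Bcan lay apart. A region among the strongest 5% of all regions, which reach a lower fold of 23.3, lay inside the span of 5 of the 10 genes: Lhfpl3, Rnf122, Xylt1, Pcdh15 and Scrg1. The share of protein-coding genes with such a region inside was 1.49%, and within 25 kb of the span 3.6%. These counts are not scaled by gene length. Pcdh15, Lhfpl3 and Xylt1 span 1550, 530 and 287 kb, and Scrg1 and Rnf122 span 23.5 and 21.5 kb. Among the 33 regions, 19 were above and 14 below the median of the lower fold, and 6 (18.2%) were in the strongest 5%.

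Of those among the 10 genes that encode enzymes or core proteins of the chondroitin sulfate matrix, Xylt1 carried the most regions. It encodes a xylosyltransferase that adds the first sugar of the chain to the core protein. Its 10 regions reached from 64.5 kb upstream of its most upstream start to 306 kb downstream of it, and 8 midpoints lay inside the RefSeq span (chromosome 7, 117380979 to 117667630, GRCm38). Of all protein-coding genes, 56 had at least 8 midpoints inside, Xylt1 included. Per 100 kb this was 2.79 regions, against 0.697 over all protein-coding genes. Among the 10 genes the value was higher at the shorter C1ql1 (13.4), Rnf122 (9.31) and Scrg1 (4.26), with 1, 2 and 1 midpoints inside. It was lower at the others.

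The strongest Xylt1 region, at chromosome 7, 117474099 to 117475002, had 42.7-fold enrichment (286 fragments) in replicate 1 and 39.2-fold (187 fragments) in replicate 2. It ranked 60th of all regions by the lower fold. Its midpoint lay 942 bp upstream of an internal start and 93.6 kb inside the gene as counted from the most upstream start. The summits of both libraries lay 4 bp apart. A neighbouring region ended 258 bp before it and had 12.2-fold and 10.4-fold enrichment, with a single peak in replicate 1 and 2 peaks in replicate 2.

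The other Xylt1 regions were weaker. The next by lower fold had 18.6-fold and 15.0-fold enrichment at 81.5 kb inside the gene, and the one 64.5 kb upstream, for which the table names no nearer gene, had 21.6-fold and 14.3-fold. The weakest, at 173 kb inside, had 5.93-fold and 4.93-fold. Within the first 114 kb of the gene lay 7 of the regions, and 1 lay deeper in the gene. A region 19.2 kb beyond the 3′ end of the RefSeq span had 5.35-fold and 5.36-fold enrichment.

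Vcan and Bcan encode versican and brevican, the hyaluronan-binding proteoglycans of the lectican family, and were the most weakly bound of the 10 genes. The only Vcan region, at chromosome 13, 89740894 to 89741697, had 9.27-fold enrichment in replicate 1 and 5.38-fold in replicate 2, with 52 and 20 fragments. The log2 ratio of replicate 2 to replicate 1 was -0.79, the lowest of the 33 regions. The midpoint lay 1.21 kb downstream of the most upstream start and 898 bp upstream of an internal start. The region was also listed under Gm4117, with a start 1.83 kb away.

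Bcan had 3 regions in the table, and none of their midpoints lay inside it (chromosome 3, 87987531 to 88002175). The nearest, at 87985360 to 87985779, lay 1.96 kb beyond its 3′ end, with 8.57-fold and 5.63-fold enrichment. The next lay inside the neighbouring gene Nes, which encodes the intermediate filament nestin of neural progenitors, and had 4.76-fold and 5.29-fold. Its local background was high, at 12.2 fragments in replicate 1, and its 62 stacked fragments stood beside a lower fold than the 48 of the region next to the 3′ end. The farthest was centred 104 bp from a start of Nes and 23.5 kb from the nearest one of Bcan, with 4.97-fold and 4.52-fold. Thus 2 of the 3 regions that the table gives to Bcan were nearer to a start of Nes. Around the Bcan starts, a peak at 88000884 to 88001221 in replicate 1 (5.55-fold) had a partner in replicate 2 (4.23-fold) that the table did not hold. Another replicate 1 peak outside the table, at 88002248 to 88002977 (5.27-fold), overlapped replicate 2 peaks of 2.72-fold each. Peaks there in replicate 1 alone reached 6.25-fold, at 88001688 to 88001987.

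Ptprz1 encodes a receptor-type tyrosine phosphatase whose extracellular part carries chondroitin sulfate and binds pleiotrophin. Its strongest region lay far upstream, at chromosome 6, 22834228 to 22835125, 40.8 kb from its start, with 37.1-fold enrichment (248 fragments) in replicate 1 and 31.7-fold (151 fragments) in replicate 2. It ranked 215th of 12925. No other gene is named for it in the table, and no protein-coding RefSeq gene holds its midpoint. A region of 12.4-fold and 7.48-fold enrichment lay next to it, with 156 bp between their edges. The third region, 26.7 kb inside the gene, had 8.1-fold and 5.05-fold. Inside the gene, both libraries also had peaks that the table did not hold: one at 22889934 to 22890384 with 7.08-fold in replicate 1 and 3.99-fold in replicate 2, and one at 22909410 to 22909804 with 5.69-fold and 3.33-fold. No peak of either library was called at the start itself (22875502); the replicate 1 peak of 2.83-fold, at 22875110 to 22875289, ended before it.

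**Figure D2:**
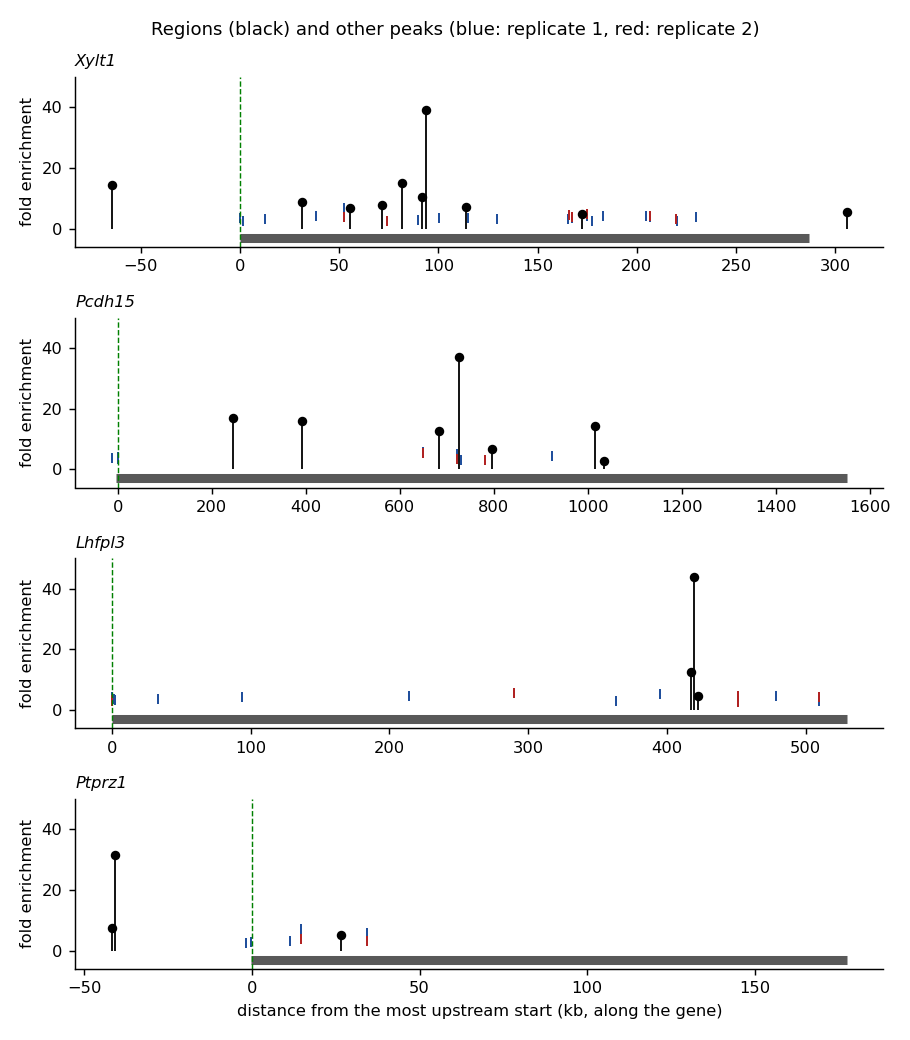
Reproducible regions (black stems, lower fold of both libraries) and other peaks (blue ticks, replicate 1; red ticks, replicate 2) at the 4 longest genes, by distance in kb from the most upstream listed start (green dashed line; for Lhfpl3 the RefSeq start), with the RefSeq span as a grey bar. The tallest stem stands 93.6 kb into Xylt1, 727 kb into Pcdh15, 420 kb into Lhfpl3 and 40.8 kb upstream of Ptprz1.

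Among the membrane proteins, Pcdh15 and Lhfpl3 had strong regions deep inside long genes, and Gpr17 a moderate one upstream. Pcdh15 encodes a protocadherin best known from the tip links of sensory hair cells. It spans 1553555 bp of chromosome 10 (73096277 to 74649831) and held 7 regions, all inside the gene, which is 0.451 per 100 kb and below the value over all genes. At least as many midpoints lay inside 92 protein-coding genes, Pcdh15 included.

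The strongest Pcdh15 region, at 73825645 to 73826914, had 37.2-fold enrichment (289 fragments) in replicate 1 and 41.4-fold (210 fragments) in replicate 2, and ranked 85th. It lay 4.34 kb downstream of an internal start and 727 kb from the most upstream one. This internal start is close to the one whose promoter window is printed above. Regions of 19.7-fold and 16.9-fold and of 16.1-fold and 15.8-fold lay 245 kb and 392 kb from the most upstream start. The former was also listed under Gm15398, with a start 17.2 kb away, and the latter under Gm15397, 1.65 kb away. At 684 kb lay a region of 18.9-fold and 12.7-fold, and at 797 kb one of 9.45-fold and 6.66-fold. A region of 17.1-fold and 14.3-fold lay at 1014946 bp. The weakest region of the group was also at Pcdh15, with 3.32-fold and 2.82-fold enrichment and an IDR of 0.0345.

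Lhfpl3 encodes a four-span membrane protein of the LHFPL family, to which a partner of protocadherin 15 in hair cells also belongs. No row of the table carries its name. The table named for the 3 regions in its RefSeq span only Gm28022, a gene whose start lay 111 to 117 kb away. The strongest of them, at chromosome 5, 23164671 to 23167214, had 44.0-fold enrichment (295 fragments) in replicate 1 and 44.6-fold (200 fragments) in replicate 2. It ranked 20th of all 12925 regions by the lower fold, the highest rank of the 33 regions; in replicate 1 alone, the Rnf122 region was higher, at 47.2-fold. Its midpoint lay 420 kb downstream of the RefSeq start of Lhfpl3. Regions of 19.9-fold and 12.5-fold and of 4.63-fold and 4.93-fold flanked it, with 1.17 and 1.14 kb between the edges. Of the 10 genes, 3 had 3 or more midpoints inside their span (Xylt1, Pcdh15 and Lhfpl3), against 3.01% of protein-coding genes. That count is not scaled by length, and these are the longest of the 10 genes: per 100 kb, Lhfpl3 had 0.567 regions, which like Pcdh15 is below the 0.697 over all protein-coding genes.

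Gpr17 encodes a G-protein-coupled receptor found in progenitors on their way to premyelinating cells. Its only region lay 4.38 kb upstream of its start, at chromosome 18, 31953436 to 31954593, with 9.82-fold enrichment in replicate 1 and 11.0-fold in replicate 2. Replicate 2 was split into a peak of 6.18-fold and one of 11.0-fold, and the summit of the stronger lay 24 bp from that of replicate 1. The midpoint is inside the span of Lims2, whose nearest listed start is 22.5 kb away. The region was also listed under Myo7b. Close to the Gpr17 start, peaks were called in replicate 1 only, at 3.9-fold and below.

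**Figure D3:**
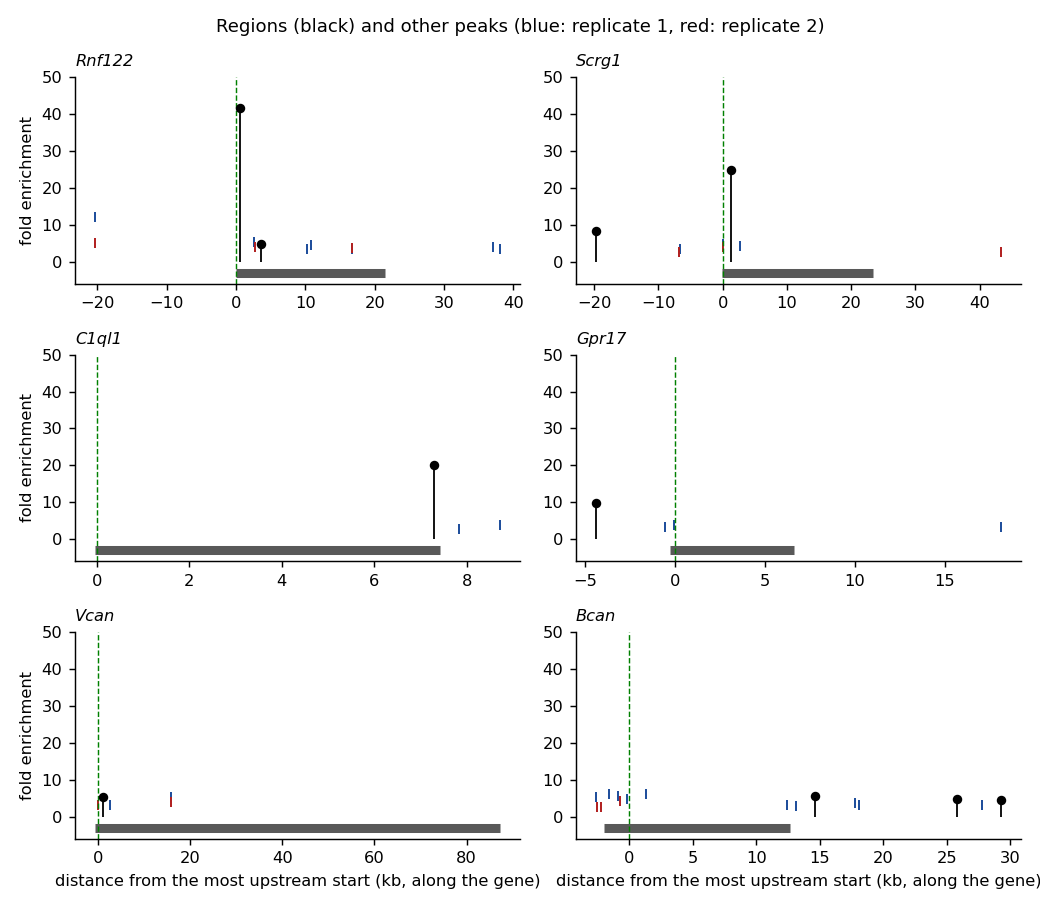
The same display for the 6 shorter genes: reproducible regions (black stems, lower fold), other peaks (ticks; blue, replicate 1; red, replicate 2), distance in kb from the most upstream listed start (green dashed line) and the RefSeq span (grey bar). The stems of Rnf122 (41.5-fold) and Scrg1 (24.9-fold) stand just downstream of the start, and that of C1ql1 (20.2-fold) at the opposite end of the gene.

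Rnf122 and Scrg1 had their strong regions just inside the gene. Rnf122 is the ubiquitin ligase gene, and its region at chromosome 8, 31111116 to 31113770, covered the start, with 47.2-fold enrichment (269 fragments) in replicate 1 and 41.5-fold (161 fragments) in replicate 2. It ranked 37th. Its midpoint lay 613 bp downstream of the nearest start, but the summits lay farther in, at 1449 bp and 1458 bp. In replicate 2 the same stretch was called as 2 peaks, a weak one of 8.86-fold with its summit 25 bp from the start and the strong one of 41.5-fold. The table's mean -log10 p for the region, 240.5, averages both of these peaks, and with the stronger one alone the mean would be 288.1. A second region 3.65 kb downstream had 6.82-fold and 4.86-fold enrichment. Both regions were also listed under Dusp26, with a start 18.4 and 21.5 kb away. A peak about 20 kb upstream, at 31091400 to 31091734, had 12.1-fold in replicate 1 and 5.12-fold in replicate 2 and was absent from the table; it was the strongest of the 10 genes' replicate 1 peaks outside the table.

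Scrg1 encodes a small secreted protein that was first described as responsive to scrapie infection. Its region at chromosome 8, 57456836 to 57457593, had 33.4-fold enrichment (196 fragments) in replicate 1 and 24.9-fold (105 fragments) in replicate 2, with summits 1377 and 1371 bp downstream of the start. As at Rnf122, weaker signal lay at the start: a peak with its summit at 57455996 in replicate 1 (4.9-fold) and at 57455987 in replicate 2 (3.84-fold), outside the table. Another region, 19.7 kb upstream, had 11.5-fold and 8.19-fold enrichment, with summits 6 bp apart.

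C1ql1 encodes a secreted protein of the C1q family that binds the adhesion receptor BAI3. Its only region, at chromosome 11, 102939110 to 102939674, covered the 3′ end of the gene, 7.3 kb downstream of its start, and had 26.8-fold enrichment (152 fragments) in replicate 1 and 20.2-fold (78 fragments) in replicate 2. The summits were 1 bp apart. The region was also listed under Kif18b, with a start 14.3 kb away, and under 2410004I01Rik and Gm26668. No peak of either library was called at the start, and both other peaks nearby were in replicate 1 alone, at 3.87-fold and 2.83-fold.

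**Figure D4:**
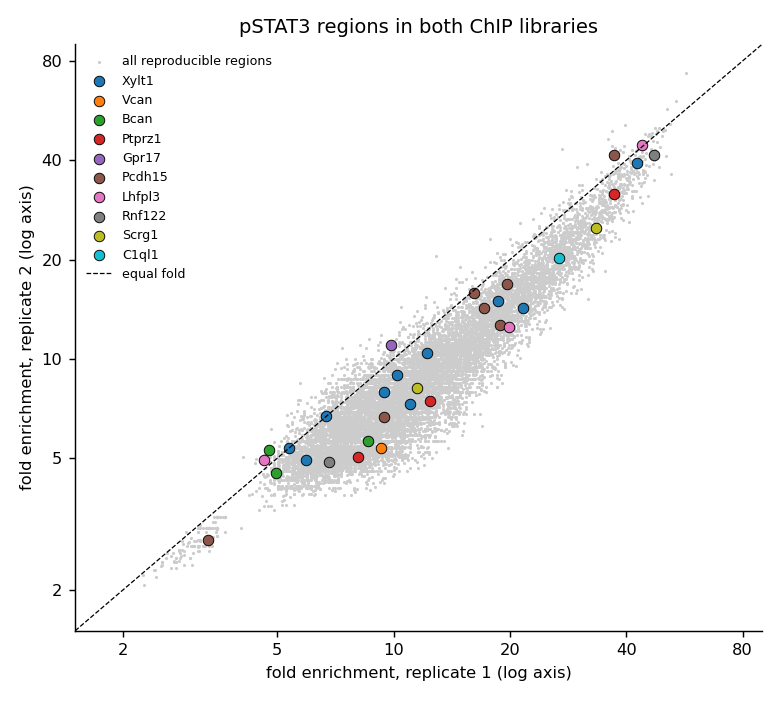
Fold enrichment in replicate 1 against replicate 2 (log axes) for all 12925 reproducible regions (grey) and the 33 regions of the 10 genes (coloured by gene), with the dashed line of equal values. Most coloured points lie below the line (26 of 33), as do 95.1% of all regions.

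The fold was higher in replicate 1 for 26 of the 33 regions (78.8%; 95.1% over all regions) and higher in replicate 2 for 7, among them the strongest regions of Lhfpl3, Pcdh15 and Gpr17. The log2 ratio of replicate 2 to replicate 1 had a median of -0.25 and ran from -0.79 to 0.17, with a median of -0.41 over all regions. Summits were close, with a median gap of 19 bp (20 bp over all regions), and 26 of 33 lay within 50 bp (84.3% over all regions). The largest gap, 461 bp, was at the Bcan region inside Nes, where the strongest replicate 2 peak was not the one nearest to the replicate 1 summit. Depth is known only through the peak caller's background, whose lowest value was 4.72 fragments for replicate 1 against 2.91 for replicate 2.

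Many weaker peaks lay around the genes without entering the table. Within 25 kb of the RefSeq spans, replicate 1 had 99 peaks and replicate 2 had 63, of which 30.3% and 54.0% overlapped a reproducible region (30.8% and 50.7% over all peaks). Outside the table, 22 of the 69 replicate 1 peaks had a partner in replicate 2, and 24 of the 29 replicate 2 peaks had one in replicate 1. Their median fold was 3.67 in replicate 1 and 3.76 in replicate 2. Lhfpl3 had 15 replicate 1 peaks and Bcan 13, of which 3 each were in the table.

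**Figure D5:**
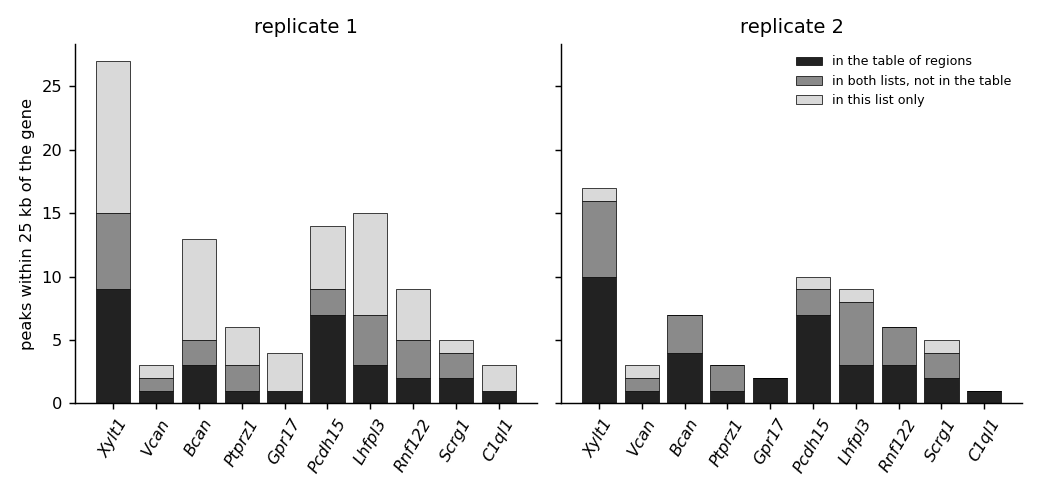
Number of peaks within 25 kb of each gene's RefSeq span in replicate 1 (left) and replicate 2 (right), divided into peaks that overlap a reproducible region, peaks present in both lists but not in the table, and peaks of that list alone. Xylt1 has the most in both (27 and 17), and peaks of 1 list alone are mostly in replicate 1 (47, against 5 in replicate 2).

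A list of 30 other genes of progenitors and a list of 41 genes of chondroitin sulfate proteoglycans were described for context, with 4 genes in common and none of the 10 among them. Of the other progenitor genes, 28 (93.3%) had a reproducible region by name, against 42.5% of protein-coding genes. Within 5 kb of a listed start, 16 (53.3%) had a region, against 18.1% of protein-coding genes. Over all regions, at any distance from a start, the median lower fold was 7.48. That of these 16 genes was 7.38, with a single region near a start taken for each. The strongest were Cspg4 (20.2-fold and 13.6-fold), the NG2 proteoglycan, Olig1 (12.2-fold and 10.9-fold), a transcription factor of the lineage, Tmem100 (18.8-fold and 10.6-fold), Nxph1 (13.9-fold and 10.3-fold) and Ednrb (11.7-fold and 9.0-fold), the endothelin B receptor.

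Of the proteoglycan genes, 30 (73.2%) had a region by name, against 42.5% of protein-coding genes. Within 5 kb of a listed start, 10 (24.4%) had a region, against 18.1% of protein-coding genes. The median lower fold of these 10, again with a single region near a start taken for each, was 9.21. The strongest were Chst3 (20.1-fold and 15.0-fold), a sulfotransferase of chondroitin chains, Chsy1 (14.9-fold and 19-fold), a chondroitin synthase, Cspg4, B3galt6 (15.6-fold and 12.1-fold), which adds a sugar to the linker that Xylt1 begins, and Adamts1 (17.3-fold and 11.0-fold), a protease of lecticans. Xylt2, which performs the same step as Xylt1, had no row in the table. Within 5 kb of a start, no gene of either list came to the 24.9-fold that Scrg1 reached in both libraries.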

How the data were processed

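Peak lists of 2 pSTAT3 ChIP libraries and 1 table of regions reproducible between them were used; replicate numbers are those of the sample titles. The submitters' processing notes name MACS2, Bowtie2, CASAVA 1.8 and the build GRCm38.p3; options and roles are not stated. In the deposited lists, each peak has a pileup signal (stacked fragments at its summit) and a fold enrichment, a ratio to local background, per the file headers. The deposited -log10 p and -log10 q columns have damaged headers and were identified by place and values. In the deposited region table, the p-value column holds the irreproducible discovery rate (IDR), at most 0.05. Its column headed fold enrichment holds the authors' mean -log10 p in 12924 of 12925 regions (within 0.001). Folds were therefore taken from the strongest peak of each list that overlaps a region by at least 1 bp. Every region starts where a replicate 1 peak starts.

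Distances are those of region midpoints from Ensembl starts in the table, which lists transcripts within 25 kb and the nearest one. Spans are those of RefSeq (GRCm38.p6), whose positions share the GRCm38 assembly; exons were not used here. Positions are 1-based. No test was made: counts stand beside the same over 21887 protein-coding genes. The genes, lists and rules were chosen with earlier results of these data known; all 10 genes are named, with up to 5 of each list by the lower fold. Read totals were not given in the sources used here. The join was tested on simulated data (100% of 2000 regions recovered). Python 3.11.15, numpy 2.4.6, pandas 2.3.3 and matplotlib 3.10.9 were used.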

Additional observations from a re-analysis of the deposited data

How the results depend on the processing

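With an IDR of 0.01 or below, or a -log10 q of at least 10 in both libraries, 8 of the 10 genes had a region (37% and 35.6% of protein-coding genes), 22 regions were left and 5 genes had one within 5 kb of a start (14.8% and 14.1%). Counting within 1 kb of a start left 3 of the genes, 8 other progenitor genes and 5 proteoglycan genes (12.8% of protein-coding genes), and counting within 25 kb gave 8, 24 and 22 (34.4%). With the peaks of 1 library alone (without replicate 1 or without replicate 2), 10 genes had a peak around the RefSeq span. These peaks numbered 63 and 99, and the share of all genes with such a peak was not counted. Within 5 kb of either end, 7 and 10 of the genes had a peak, against 34.8% and 49.8% of protein-coding genes. Other progenitor genes numbered 23 and 26 of 30, and proteoglycan genes 20 and 26 of 41. The median lower fold of the strongest regions, 28.3, ran from 28.3 to 35.2 with 1 library, and was 22.6 with the peak nearest to each midpoint, which at Rnf122 is the weak peak at the start (8.86-fold in place of 41.5). The median distance of the strongest regions from a start, 4.36 kb, was 4.66 and 4.67 kb with the summits of replicate 1 and 2. Alternatives chosen after seeing the data were regions by RefSeq span whatever the listed name (10 genes and 30 regions, not the same 30), either end of the span (6 genes) and the most upstream start alone (4 genes). No paired analysis was possible because the inputs come with no values of their own, so a single group was left.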
